A study of Homo sapiens with 2 samples.

Results

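Open chromatin sites far from any protein-coding gene, in so-called gene deserts, were examined in undifferentiated H9 cells, an established human embryonic stem cell line kept on Matrigel in mTeSR medium. The assay, ATAC-Me, cuts accessible DNA with a transposase and converts the unmethylated cytosines of the same fragments, so accessibility and CpG methylation come from the same molecules. There was 1 group, untreated H9 cells, with 2 replicates and no second condition. The members were the autosomal peaks whose summit lay outside every RefSeq protein-coding gene and more than 100000 bp from the nearest gene end, and which held at least 1 and fewer than 5 CpGs per 100 bp. This gave 2577 of 46884 autosomal peaks, called desert peaks here, 5.50% of the total. The comparison classes had the same CpG limits: 7604 peaks between genes but within 100000 bp of a gene end, and 9558 peaks inside genes.

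Gene deserts are long stretches of the genome without protein-coding genes, often found beside genes that control development or build neuronal contacts, and they can hold enhancers that act over long distances and long noncoding RNAs (lncRNAs). In mammalian cells most CpGs outside promoters carry methyl groups, while CpGs of promoters and of enhancers bound by transcription factors tend to carry fewer. Pluripotent cells keep many distal sites open that later close or become active in single lineages.

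The replicates held 28475863 and 51406146 CpG reads on the autosomes and reached 31.6% and 59.0% of the 27852739 autosomal CpG positions in the tables. Whether they were separate cultures is not stated in the labels, so the SD given below may be technical. With 2 replicates in 1 group no test between classes over samples can pass a threshold, since the smallest two-sided p of an exact sign-flip test of 2 paired differences is 0.5. Of 6 pluripotency genes with a start in the RefSeq promoter table, SOX2, NANOG, DPPA4, L1TD1, ZSCAN10 and DNMT3B, all had a peak at the start, and 5 were under 20% methylated within 500 bp of it; DNMT3B stood at 46.8% ± 4.08 (SD, n = 2). The neural genes PAX6, SOX1 and NES also had unmethylated open starts in these cells, at 0.679% to 1.13%. The blood gene LCK had a peak at a start and stood at 43.5% ± 0.124. KRT5, a keratinocyte gene, had no peak and stood at 88.3% ± 4.94, while the blood gene PTPRC had no peak and no reads. The fibroblast markers listed have no start in that table and were not used here.

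A few desert peaks held the start of a lncRNA, and 4 of their promoter windows show how sparse in CpGs these sites can be. The windows run from 250 bases before to 50 after the start site, from RefSeq with build GRCh38.p14, 5′ to 3′ on the strand of the RNA, and capitals mark the CpGs. RMST, an RNA of neural differentiation known to bind SOX2, starts at chr12:97464843-97465142 on the plus strand, LINC02826 at chr12:125983273-125983572 on the plus strand, LINC01101 at chr2:120466300-120466599 on the minus strand, and MIR205HG, the host RNA of the epithelial miRNA miR-205, at chr1:209428570-209428869 on the plus strand. They are shown because the first 3 were nearly free of methylation although 1 of them has only 2 CpGs, while the fourth lay in a peak of intermediate methylation.
RMST: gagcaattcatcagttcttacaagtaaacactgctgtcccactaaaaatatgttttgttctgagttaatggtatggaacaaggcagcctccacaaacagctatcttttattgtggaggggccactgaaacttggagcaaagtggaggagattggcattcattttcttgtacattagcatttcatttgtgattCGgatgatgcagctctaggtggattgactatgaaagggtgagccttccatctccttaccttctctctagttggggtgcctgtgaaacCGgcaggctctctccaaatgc
LINC02826: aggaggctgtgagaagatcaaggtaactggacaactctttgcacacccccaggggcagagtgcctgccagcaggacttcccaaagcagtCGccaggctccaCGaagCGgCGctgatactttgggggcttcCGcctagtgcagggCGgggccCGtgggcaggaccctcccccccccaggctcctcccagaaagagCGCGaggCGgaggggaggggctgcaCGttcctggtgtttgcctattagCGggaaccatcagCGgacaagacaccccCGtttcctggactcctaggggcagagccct
LINC01101: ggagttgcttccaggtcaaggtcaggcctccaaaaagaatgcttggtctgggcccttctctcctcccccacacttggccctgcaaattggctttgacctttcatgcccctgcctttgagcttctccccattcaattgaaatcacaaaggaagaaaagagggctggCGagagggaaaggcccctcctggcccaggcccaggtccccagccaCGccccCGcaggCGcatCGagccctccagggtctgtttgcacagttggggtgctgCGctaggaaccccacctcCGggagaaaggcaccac
MIR205HG: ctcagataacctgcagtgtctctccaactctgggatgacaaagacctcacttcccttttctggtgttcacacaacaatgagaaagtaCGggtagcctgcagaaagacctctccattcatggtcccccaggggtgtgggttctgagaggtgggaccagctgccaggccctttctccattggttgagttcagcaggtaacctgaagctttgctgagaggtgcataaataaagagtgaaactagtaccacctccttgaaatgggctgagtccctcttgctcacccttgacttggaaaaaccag

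At the CpGs in these windows the RMST promoter had 1.41% methylated reads of 71 in replicate 1 and 0% of 56 in replicate 2. LINC02826, with 14 CpGs, had 0% of 320 and 1.64% of 305 reads, and LINC01101, with 7 CpGs, had 0% of 159 and 2.46% of 203 reads. The only CpG in the MIR205HG window, 163 bp before the start, was methylated in 2 of 15 and 1 of 19 reads. The other 9 CpGs of that peak lay farther upstream, the nearest 294 bp before the start, and most were more methylated, up to 85.7% in replicate 1 and 100% in replicate 2 on 2 to 11 reads each. The whole MIR205HG peak stood at 48.9% and 38.7% in replicates 1 and 2, against surroundings of 65.0% and 73.1%.

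Desert peaks were similar in width and signal to the comparison classes. Their median width was 250 bp, against 261 bp near genes and 258 bp inside genes, and their median peak signal, the peak caller's own value as the authors deposited it, was 448, against 465 near genes and 447 inside genes. The median distance to a protein-coding gene was 225363 bp, and the farthest summit lay 3886523 bp away on chromosome 16. They held a median of 5 CpGs at 1.75 CpGs per 100 bp, against 2.13 near genes and 2.08 inside genes. Deserts took up 29.8% of the autosomal length and 21.3% of the CpGs, but held 0.434 of these CpG-sparse peaks per 1000 CpGs, against 0.922 near genes and 0.700 inside genes. By length there were 3.07 desert peaks per Mb of desert, against 9.98 near genes and 7.91 inside genes. Within deserts, peaks were thinnest on chromosome 19, with 0.632 per Mb and 4 peaks in all in 6.33 Mb of desert. They were densest on chromosome 6, with 4.24 per Mb and 217 peaks. Lengths ran from the first to the last CpG position of a chromosome, so stretches without listed CpGs were counted in the Mb. Deserts also held peaks outside the CpG limits, of which 656 had no CpG, 2175 had a CpG but fewer than 1 per 100 bp, and 226 had 5 or more.

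Desert peaks carried more methylation than the other CpG-sparse peaks. A peak's methylation is its methylated CpG reads as a percentage of all its CpG reads, and 2504 desert peaks had the 10 reads in each replicate needed to give it. Their median was 18.9% in replicate 1 and 20.7% in replicate 2, which averages to 19.8% ± 1.29 (SD, n = 2), against 11.4% ± 0.682 near genes and 15.3% ± 0.744 inside genes. The difference was 8.39 ± 0.609 percentage points from peaks near genes and 4.51 ± 0.546 points from peaks inside genes (SD of the difference, n = 2), larger than the spread between replicates in both cases. Both quartiles lay higher too: the lower quartile of desert peaks was 6.37% and the upper quartile 42.1%, against 3.53% and 29.0% near genes. Under 20% methylation stood 49.8% ± 2.06 of desert peaks, against 64.6% ± 0.662 near genes and 57.2% ± 1.16 inside genes. Over 80% stood 2.90% ± 0.198 of desert peaks, against 1.23% ± 0.0189 near genes and 1.44% ± 0.0678 inside genes. In both replicates at once, 1084 desert peaks (43.3%) were under 20%, against 59.0% near genes, 51.0% inside genes and 70.2% of all autosomal peaks. Between 40% and 60% lay 200 (7.99%), against 5.44%, 6.15% and 3.68% in the same order. Over 80% were 30 (1.20%), against 0.441%, 0.501% and 0.391%.

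**Figure D1:**
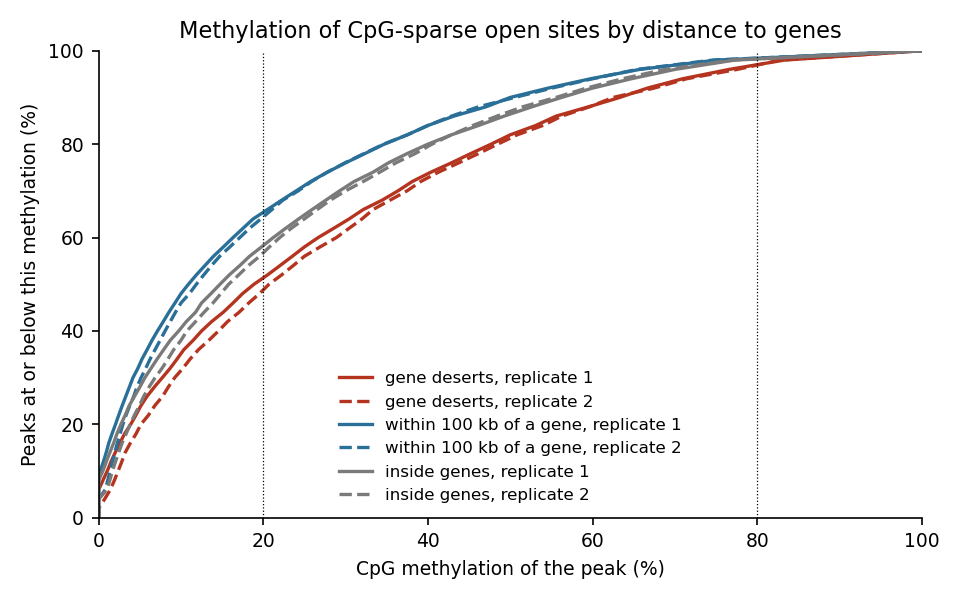
Share of peaks (y axis, percent) at or below each CpG methylation (x axis, percent) for desert peaks, CpG-sparse peaks within 100 kb of a gene and CpG-sparse peaks inside genes, with solid lines for replicate 1 and dashed lines for replicate 2. The desert lines run lowest: 49.8% of desert peaks were under the dotted line at 20%, against 64.6% near genes and 57.2% inside genes.

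CpG density and read depth differed between the classes and methylation varied with peak signal, so the comparison was repeated within bins of density and signal. Within 4 density classes crossed with 5 signal classes, weighted by the number of desert peaks, the difference was 6.09 ± 0.466 points from peaks near genes, and desert peaks were higher in both replicates in 19 of 20 bins. From peaks inside genes it was 2.84 ± 0.101 points, and desert peaks were higher in both replicates in 13 of 20 bins. The difference from peaks near genes narrowed with signal, being 13.0 ± 0.764 points in the weakest of the 5 signal classes (32.4% against 19.5%) and 2.63 ± 0.600 points in the strongest (6.78% against 4.15%). Replicate 2 was the deeper library, but desert peaks had fewer reads in it: the median ratio of replicate 2 to replicate 1 reads was 0.818 at desert peaks, against 1.18 near genes and 1.17 inside genes. In the surroundings of the same desert peaks that ratio was 1.70. The part of read depth in the methylation difference was not tested. The difference from peaks near genes was 7.96 points in replicate 1 and 8.83 points in replicate 2, and with at least 50 reads in each replicate it was 4.12 ± 0.486 points.

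Among desert peaks, the median methylation was higher farther from genes and lower at stronger peaks. The median was 16.5% ± 1.29 at 100000 to 200000 bp from a gene, 21.9% ± 0.911 at 200000 to 500000 bp, and 25.96% ± 2.90 beyond 500000 bp (SD, n = 2; 1092, 947 and 465 peaks). The mean over peaks had the same order, at 24.1% ± 0.826, 27.5% ± 0.738 and 30.7% ± 1.33. With all reads of a class pooled, so that peaks of many reads count most, the order was the opposite, at 22.2% ± 6.81, 19.4% ± 1.02 and 14.4% ± 2.26, although in replicate 1 alone the middle class was highest, at 17.4%, 18.7% and 12.8%. The farthest class held the deepest desert peak, with 17201 and 26694 CpG reads at 1.35% and 3.51%. The nearest class held a group on chromosome 16 with 1493 and 9524 reads at 79.4% and 81.9%. Their part in the pooled order was not tested. In 4 equal classes of peak signal the median was 32.9% ± 0.548 in the weakest class, 23.7% ± 1.95 and 19.2% ± 1.15 in the next ones, and 8.34% ± 1.06 in the strongest. In the strongest class 70.4% ± 2.96 of peaks were under 20%, against 32.5% ± 0.594 in the weakest. Peaks of 3 to 5 CpGs per 100 bp had a median of 11.7% ± 1.16, and those of 1 to 1.5 had 21.97% ± 2.60. Outside the density limits, the 226 CpG-rich desert peaks stood at 2.09% ± 0.711 and the measured peaks of under 1 CpG per 100 bp at 15.8% ± 2.20. The median of all desert peaks depends on the read minimum. With at least 50 reads in each replicate, 1053 peaks remained, with a median signal of 763 and a median methylation of 10.9% ± 1.09.

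**Figure D2:**
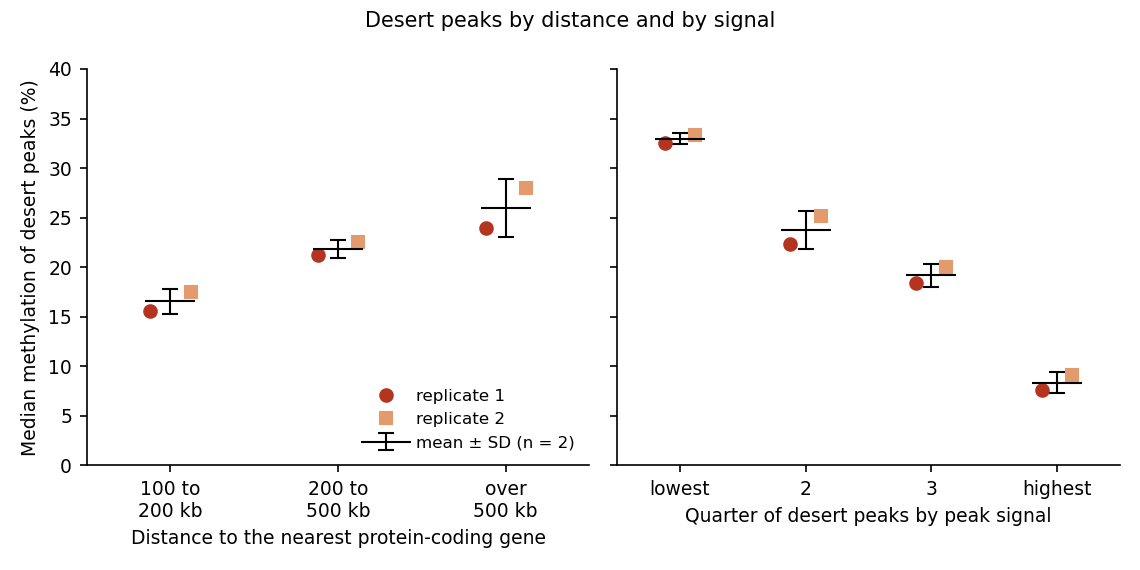
Median methylation of desert peaks (y axis, percent) by distance to the nearest protein-coding gene (left) and in 4 equal classes of peak signal (right); circles are replicate 1, squares replicate 2, and bars the mean ± SD (n = 2). The median was 16.5% in the nearest distance class and 25.96% in the farthest, and 32.9% in the weakest signal class and 8.34% in the strongest.

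The 10 kb around desert peaks were mostly methylated. Counting CpGs within 5000 bp of the summit on each side and outside every peak, the median over 2532 desert peaks was 75.3% in replicate 1 and 81.4% in replicate 2, which averages to 78.4% ± 4.30 (SD, n = 2), against 74.4% ± 5.22 near genes and 76.6% ± 4.88 inside genes. In the same replicate, the surroundings of desert peaks were 4.61 and 3.30 points higher than those of peaks near genes, a mean of 3.96 ± 0.927. Coverage was thin there, with a median of 50 and 81 reads over 76 CpGs, or 0.660 and 1.11 reads per CpG, against 11.5 and 9.67 reads per CpG in the peaks themselves. With all reads pooled, desert DNA outside peaks was 78.1% and 83.4% methylated in replicates 1 and 2. On the same measure, DNA within 100000 bp of genes stood at 61.2% and 70.4%, and DNA inside genes at 56.7% and 66.8%. Pooled in this way, the surroundings of desert peaks stood at 60.6% and 73.7%, lower than their medians over peaks. From the nearest to the farthest distance class the surroundings stood at 77.7% ± 4.73, 78.8% ± 3.87 and 79.4% ± 3.90, with the same order in each replicate, from 74.3% to 76.6% in replicate 1 and from 81.0% to 82.1% in replicate 2. The median difference between a peak and its own surroundings was -51.2 ± 4.92 points, against -52.1 ± 5.79 near genes and -50.6 ± 4.79 inside genes. Taken within each replicate, the desert value minus that near genes was 0.304 and 1.53 points, and minus that inside genes -0.516 and -0.703 points.

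From the summit outwards methylation climbed gradually and went on climbing well outside the peak. Averaged over peaks with equal weight, methylation within 50 bp of desert summits was 23.6% and 24.7% in replicates 1 and 2, at 150 to 200 bp it was 43.9% and 46.3%, at 400 to 500 bp 66.1% and 70.7%, and at 4000 to 5000 bp 80.0% and 83.7%. Desert peaks were higher than the other classes in every distance bin of both replicates, from 23.6% against 16.4% near genes in the first 50 bp of replicate 1 to 80% against 74.5% in the last bin.

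**Figure D3:**
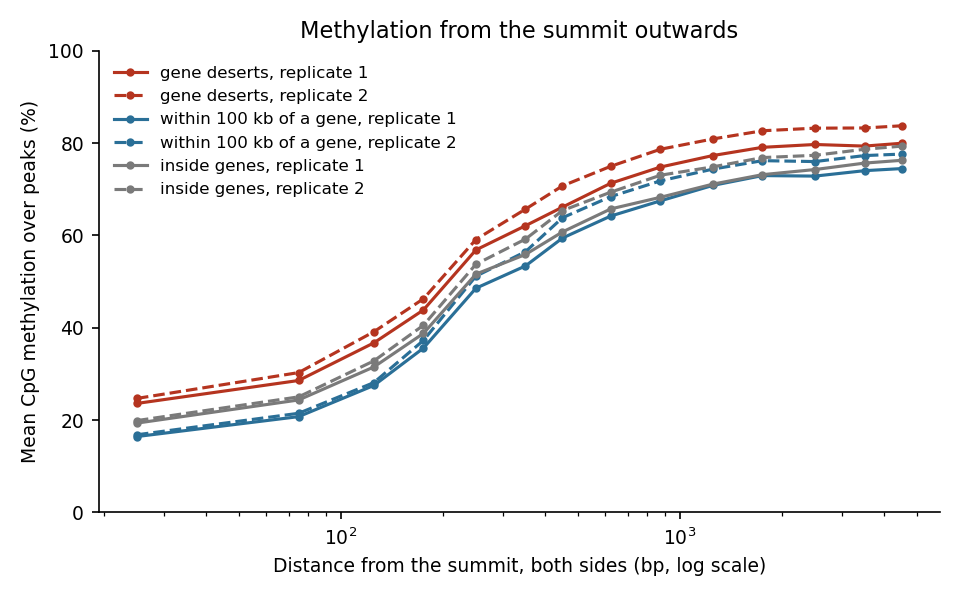
Mean CpG methylation over peaks (y axis, percent) against distance from the summit on both sides (x axis, bp, log scale) for desert peaks and both comparison classes, with solid lines for replicate 1 and dashed lines for replicate 2. The desert lines lie above the others of the same replicate at every distance; within 50 bp of the summit they stand at 23.6% and 24.7%.

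Each peak was tested against its own surroundings with Fisher's exact test on methylated and unmethylated reads in each replicate, adjusted by Benjamini-Hochberg over all autosomal peaks and called at 0.05 in both. Of 2463 desert peaks that could be tested, 2030 (82.4%) were less methylated than their surroundings, against a background of 88.1% over all 40513 autosomal peaks tested; near genes the share was 84.4% and inside genes 83.2%. The desert peaks that did not pass were weaker, with a median signal of 320, against 503 for those that did, and had 35 and 30 reads in place of 64.5 and 53. More methylated than the surroundings were 3 desert peaks, 0.122%, against a background of 0.301%. Reads over neighbouring CpGs can come from the same fragment, so these p-values are too small.

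**Figure D4:**
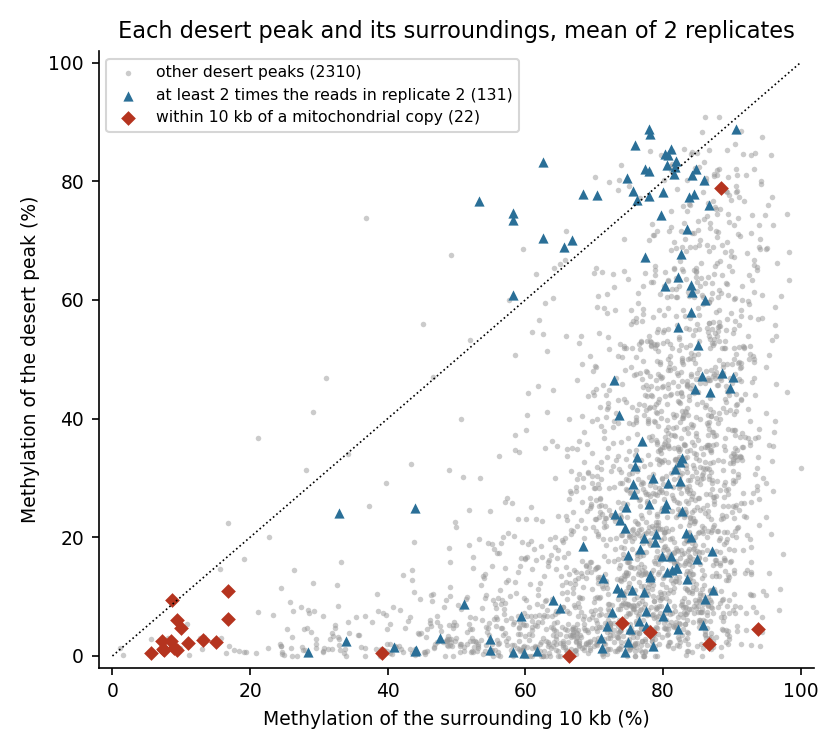
Methylation of each of 2463 desert peaks (y axis, percent) against that of its surrounding 10 kb (x axis, percent), as the mean of 2 replicates; the dotted line marks equal values. Red diamonds are 22 peaks within 10 kb of a nuclear copy of a mitochondrial gene, blue triangles 131 peaks with at least 2 times as many reads in replicate 2, and grey points the other 2310. Most points lie far below the line at surroundings above 60%.

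The strongest desert peaks were nearly unmethylated, with surroundings that differed widely from peak to peak. The highest signal, 4638, lay at chr2:146539852-146541378, 1303682 bp from ACVR2A, an activin receptor, with methylation of 1.36% of 440 reads (Wilson 95% interval 0.626% to 2.94%) and 1.34% of 224 reads (0.457% to 3.86%) in replicates 1 and 2, in surroundings of 65.1% and 73.8%. Next came chr4:132495224-132496176, 653914 bp from PCDH10, a protocadherin of neuronal adhesion. It stood at 0.986% of 710 and 3.09% of 453 reads, and its surroundings were themselves low, at 21.9% and 37.1%. A peak at chr4:18691163-18692167, inside the lncRNA LOC105374510 and 669771 bp from LCORL, had 0.519% and 2.75% in surroundings of 76.9% and 70.9%. The peak 139297 bp from GRIA1, an AMPA glutamate receptor subunit, at chr5:153350132-153350877, had 5.33% and 4.50%, against 77.0% and 80.8% around it. At chr2:16104907-16106277, 158859 bp from MYCN, a transcription factor of proliferating embryonic cells, the peak had 0.519% and 1.30%, against 53.5% and 52.5%. All 10 strongest peaks with 50 reads in each replicate passed the test against their surroundings in both replicates, the largest adjusted p of Fisher's exact test being 0.00032, at chr17:22524395-22524621 over MTRNR2L1, a copy of a mitochondrial gene. That peak had 1.41% and 3.49% in surroundings that were nearly unmethylated as well, at 3.66% and 10.7%. The strongest with surroundings over 80% in both replicates and no mitochondrial copy lay at chr14:98819498-98820155, 349645 bp from BCL11B, a zinc finger factor of T cell and neuronal development, with 7.33% and 8.91% in the peak and 92.5% and 81.9% around it. In all, 163 desert peaks were under 20% with surroundings over 80% in both replicates. No like count is given here for the other classes.

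**Figure D5:**
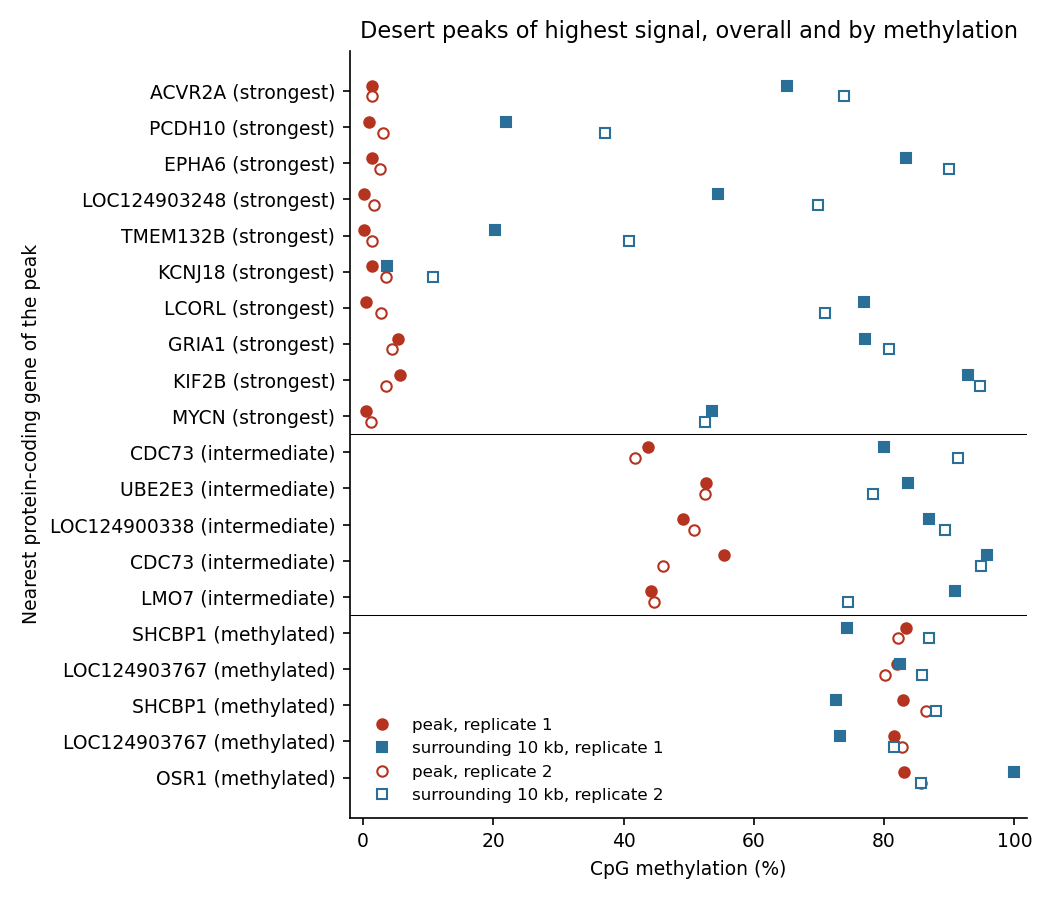
CpG methylation (x axis, percent) of the 10 strongest desert peaks, the 5 strongest at 40% to 60% and the 5 strongest over 80%, each named by its nearest protein-coding gene (y axis); circles are the peak, squares its surrounding 10 kb, filled symbols replicate 1 and open symbols replicate 2. All 10 strongest peaks lie under 6%, while the methylated peaks overlap their surroundings.

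Intermediate peaks were those chosen for 40% to 60% methylation in both replicates, 54 of them with at least 50 reads. The strongest lay at chr1:194342660-194343166 inside the lncRNA LOC107985242, 1088215 bp from CDC73, with 43.8% of 201 and 41.7% of 127 reads, against 80.0% and 91.4% around it. A peak 389132 bp from UBE2E3, at chr2:180591091-180591438, had 52.7% and 52.6%, and 1 at chr13:86882144-86882527 had 49.1% and 50.7%. All 5 strongest intermediate peaks were less methylated than their surroundings in both replicates, with adjusted p-values of Fisher's exact test up to 0.00868. Tables of methylation per CpG do not show whether such a value comes from partly methylated molecules or from a mixture of methylated and unmethylated ones.

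Of the 10 desert peaks over 80% methylated with at least 50 reads in each replicate, 6 lay beside the centromere of chromosome 16 and 1 beside that of chromosome 5. The strongest, at chr16:46399021-46399879 and 179160 bp from SHCBP1, had 83.3% of 402 and 82.2% of 2261 reads in surroundings of 74.4% and 86.9%. These peaks had far more reads in replicate 2. The 2 largest groups on chromosome 16, of 8 peaks within 19996 bp at chr16:34572972-34592967 and of 7 peaks within 14858 bp at chr16:46386819-46401676, held 1043 reads in replicate 1 and 7351 in replicate 2, and 1493 and 9524 reads. Their pooled methylation was 73.1% and 83.1% in the first group and 79.4% and 81.9% in the second. Across all deserts, 139 measured peaks had at least 2 times as many reads in replicate 2, with a median of 31.1% ± 2.20, and the 22 of them on chromosome 16 had 75.1% ± 5.20; the remaining 2365 had 19.3% ± 1.33. The 3 methylated peaks of ordinary read ratio lay near OSR1 (chr2:19073654-19073881, 83.0% and 85.7%), near ATXN7L3B over the pseudogene VENTXP3 (chr12:74292792-74293153, 85.1% and 83.8%) and inside LINC01194 (chr5:12660677-12660970, 88.0% and 82.4%).

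At the other extreme were copies of mitochondrial DNA in the nuclear genome. Annotated copies of mitochondrial genes overlapped 17 desert peaks, all under 20% in both replicates, with a median of 2.49% ± 1.51 and a median signal of 1067. Leaving these 17 out gave a median of 20.01% ± 1.17 for the other desert peaks. The third largest signal of all was at chr3:96617164-96618503 over MTRNR2L12, with 1.42% of 1971 and 2.55% of 1332 reads in surroundings of 83.3% and 90%. The deepest desert peak, at chr17:22521324-22521524 beside MTCYBP13, held 17201 and 26694 CpG reads, against a median of 56 and 47 over all desert peaks, and stood at 1.35% and 3.51%. A group of 8 peaks at chr5:100046746-100054730 covered copies of 7 such genes, with pooled methylation of 2.11% and 4.19%. Around these 17 peaks the median of the surroundings was low as well, at 10.2% ± 5.69, against 78.5% ± 4.20 around the remaining desert peaks. Most of the 17 lay close together at chr5:100046746-100054730 or near chr17:22524395-22524621, so their surroundings overlap. Elsewhere the surroundings stood at 83.3% and 90% (MTRNR2L12), 92.9% and 94.7% (MTCO1P40) and 68.4% and 79.6% (MTND5P4). At MTCYBP19 they stood at 21.4% and 57.0%. How much of the signal at these copies came from mitochondrial DNA itself was not tested.

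The most isolated measured peaks varied widely. Among those with 50 reads in each replicate, the farthest from a protein-coding gene lay at chr17:25074336-25074594, 2219577 bp from WSB1, with 59.1% of 66 and 61.9% of 388 reads, and 1 more in the same centromere region, at chr17:25389776-25390036, had 60.7% and 59.3%. On the arms of other chromosomes, a peak 1982032 bp from TENM3, a teneurin of neuronal adhesion, at chr4:179465268-179465732 had 31.9% and 53.8%, and 1 in the same desert, 1727911 bp from AGA at chr4:179170153-179170592, had 0% of 89 and 1.23% of 81 reads (Wilson 95% intervals 0% to 4.14% and 0.218% to 6.67%). The surroundings of that last peak were also low, at 17.8% of 281 and 20.4% of 216 reads. At chr21:23452745-23453079, 1909625 bp from NCAM2, a neural cell adhesion molecule, the peak had 8.15% and 15.2%, against 84.1% and 66.0% around it.

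Many desert peaks lay in or beside noncoding genes, to which the rule set no distance. The median distance from the summit to a noncoding gene was 15043 bp, against 9534 bp for peaks near genes. The summit lay inside a lncRNA at 747 desert peaks, 29.0%, against 20.5% near genes and 7.92% inside genes, and inside another noncoding gene or pseudogene at 49 more. How much of the sequence of each class lies in lncRNAs was not measured, so these shares do not show a preference for lncRNAs. More than 100000 bp from any gene of any kind lay 294 desert peaks, 11.4%. More than 100000 bp from any noncoding gene lay 3.93% of peaks near genes and 9.14% of peaks inside genes. The median methylation was 20.9% ± 0.408 inside lncRNAs and 19.6% ± 1.69 outside every gene, a difference smaller than the larger of these SDs, and 6.76% ± 1.53 at the 45 measured peaks inside another noncoding gene or pseudogene. Many of these 45 peaks lay in the copies of mitochondrial genes described above, and their part in this value was not tested. Within 1000 bp of an end of a noncoding gene lay 190 desert peaks, 7.37%: 137 at lncRNAs, 38 at pseudogenes, 5 at tRNA genes, 3 at miRNA genes and 7 at other kinds. No like share is given here for the other classes.

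Desert peaks that held a lncRNA start had low methylation. There were 36, at 35 lncRNAs, with a median of 6.84% ± 1.92, against 19.9% ± 1.26 for desert peaks without a start (SD, n = 2). The peaks with a start were also stronger, with a median signal of 603, against 445 for those without. This comparison was not matched for signal or CpG density, and their part in it was not tested. The starts of lncRNAs in the comparison classes were alike, at 4.61% ± 1.34 near genes and 6.12% ± 0.854 inside genes. The strongest, at chr13:106796281-106797313 over LOC105370349, had 0.157% of 636 and 1.66% of 422 reads in surroundings of 54.5% and 69.8%. The LINC02826 peak, whose promoter is printed above, had 0.0939% of 1065 and 1.34% of 818 reads over 1334 bp. LINC01101, 114498 bp from INHBB, an activin and inhibin subunit, had 0% of 482 and 2.17% of 552 reads in surroundings of 49.4% and 70.0%. RMST, 511309 bp from NEDD1, had 0.478% of 209 and 0% of 119 reads, and its surroundings were nearly unmethylated as well, at 7.14% and 15.04%. The octamer ATGCAAAT, the classical recognition sequence of POU factors such as OCT4, was found on either strand in 3 of 43 windows (6.98%) whose start lay in a desert peak (LOC102723670, LOC105371972 and LOC105373409), against 1.97% of 12569 lncRNA windows and 1.75% of all 33725 autosomal RefSeq promoter windows of 300 bases. The 43 windows belong to 35 lncRNAs, so some are starts of the same RNA. With 3 windows the difference rests on few cases, and it was not tested.

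2 desert peaks overlapped a miRNA hairpin of the RefSeq table. The hairpin of MIR138-1, a miRNA abundant in brain, lies at chr3:44114212-44114310 on the plus strand and only partly in the peak, chr3:44114244-44114428. The mature miR-138-5p, at chr3:44114234-44114256, begins before the peak. That peak had 30.6% and 33.5% methylation on 72 and 158 reads, against 69.2% and 82.6% around it. That of MIR5087 lies at chr1:148334479-148334554 on the minus strand in a peak of 1.12% and 1.37% on 536 and 584 reads. Their mature sequences are shown to identify them, with the seed, bases 2 to 8, in capitals.
hsa-miR-138-5p: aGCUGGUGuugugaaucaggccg
hsa-miR-5087: gGGUUUGUagcuuugcuggcaug

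Of 29 noncoding RNAs listed as known from pluripotent or early differentiating cells, 12 had some peak within 1000 bp of an end. Among these, MIR302A, MIR302B, MIR302C and MIR302D lay beside the same peak. The share over all noncoding genes is not given here, so the counts have no reference. A desert peak lay within 1000 bp of an end in 1 case, LINC00458. That RNA is expressed in human pluripotent cells, and the peak, at chr13:54132842-54133124, was weak, with a signal of 229 and methylation of 44.1% of 34 and 52.4% of 21 reads. LINC01194 held 3 desert peaks close together with very different values. The strongest, at chr5:12667801-12668331, had 0.524% of 382 and 1.37% of 293 reads, while the other two had 76.8% and 80.2% (chr5:12661535-12662360) and 88.0% and 82.4% (chr5:12660677-12660970).

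The protein-coding genes nearest to desert peaks were 1202 of 18973, or 6.34%. Of 100 developmental transcription factors, 48 were the nearest gene of a desert peak, with 115 peaks between them. Of 79 neuronal adhesion and synapse genes there were 61, with 183 peaks, and of 42 signalling ligands and receptors 16, with 29 peaks. These lists were drawn up with the known neighbours of deserts in view, so their shares are not independent evidence, and genes beside longer deserts have more room for peaks. Next to the transcription factors were 4.46% of desert peaks, against 1.33% of peaks near genes, and next to the neuronal genes 7.10%, against 0.829%.

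Median methylation next to single genes of the same list varied, on at most 8 peaks each. The SD below is over the 2 replicates and does not measure the spread between peaks. Over all desert peaks the quartiles were 6.37% and 42.1%. Single genes were named after their values were seen, and differences between genes were not tested. Peaks next to the transcription factors had a median of 18.4% ± 1.31, peaks next to signalling genes 25.97% ± 5.55, and peaks next to the neuronal genes 28.2% ± 1.26, against 19.8% ± 1.29 for all desert peaks. Low values stood beside MSX2, a homeobox factor of limb and skull development (5 peaks, 3.21% ± 0.907), PAX3, a factor of neural crest and muscle (3 peaks, 2.58% ± 0.508), LSAMP, a neuronal surface protein (4 peaks, 4.68% ± 3.56), and CDH10, a cadherin (8 peaks, 9.22% ± 5.20). Higher values stood beside EOMES, a factor of mesendoderm (3 peaks, 61.7% ± 8.70), and SLITRK6 and SLITRK5, which organise synapses (7 peaks at 53.5% ± 9.15 and 6 peaks at 50.6% ± 0.898). NKX6-1, a factor of pancreatic and motor neuron identity, had 7 peaks with a median of 33.5% ± 2.07. The genes with the most desert peaks were the uncharacterised LOC124903233 on chromosome 13, with 11, and KCNJ18, MMS22L, LOC124903767 and DIAPH3, with 9 each; those of KCNJ18 lie mostly at or beside mitochondrial copies, at 2.31% ± 1.67, and those of LOC124903767 lie beside the chromosome 16 centromere, at 74.3% ± 6.96.

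Few desert peaks differed between the replicates past the test, which can miss differences at peaks of few reads. Over all desert peaks the median was 56 and 47 reads in replicates 1 and 2. Fisher's exact test, adjusted over 40703 autosomal peaks at 0.05, called 62 of 2504 desert peaks higher in replicate 2 (2.48%), against a background of 7.19% over all autosomal peaks, and 24 lower (0.958%), against 0.7%. Among CpG-sparse peaks, 1.51% near genes and 1.55% inside genes were called higher in replicate 2, and 0.936% and 1.04% lower. A test that allows for an offset between the libraries called 49 desert peaks in both directions, in place of 86. The share that this test called over all autosomal peaks is not given here, so the 49 have no reference. The largest differences among the desert peaks called by Fisher's exact test rested on few reads. At chr13:87124053-87124363, 490050 bp from LOC124900338, methylation was 18.5% of 65 reads in replicate 1 and 76.0% of 25 in replicate 2 (adjusted p of Fisher's exact test 0.000104). At chr4:111943806-111943996 inside LINC02945 it was 83.3% of 12 and 11.8% of 17 reads, and at chr21:16224848-16225176 inside MIR99AHG, a host RNA of miRNAs, 30% of 30 and 79.2% of 24.

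The peaks nearest to the 100000 bp limit varied on both sides of it. Just inside lay peaks 100111 bp from IQCM (41.7% and 28.6%), 100123 bp from SSBP2 (0% and 0.671%) and 100142 bp from PKDCC (5.80% and 10.5%). Just outside lay peaks 99962 bp from ADRA2C (82.9% and 75.8%), 99821 bp from GATA3 (70.8% and 50%) and 99811 bp from KIF2A (25.6% and 39.3%).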

How the data were processed

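H9 cells were measured by ATAC-Me in 2 replicates. For each, the authors deposited a table of CpGs without a header, holding a methylation fraction (0 to 1) and a count of covering reads; methylated reads were taken as their product, rounded to whole numbers (whole within 0.001 for 99.9998% and 99.9986% of rows). The authors also deposited 1 peak list for both replicates, with the summit, a score, a signal value and a −log10 q-value for each peak. The tools Trim Galore and Genrich and the build hg38 (GRCh38) are named per the submitters' processing notes, while the mapper, methylation caller, duplicate removal and versions were not given in the sources used here. Cytosines that fail to convert read as methylated.

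Gene positions came from the RefSeq table of GRCh38.p14. Its 676 genes on unplaced or alternate scaffolds carry scaffold positions and were left out, leaving 56080 autosomal genes, 18973 of them protein-coding. CpGs per 100 bp were counted from the listed rows, with or without reads. Peaks needed 10 CpG reads in each replicate. A read over several CpGs was counted at each, so Wilson intervals are too narrow and cover counting error only. Fisher's exact tests were two-sided, with Benjamini-Hochberg adjustment over all autosomal peaks, and were tested on simulated data. Peaks were named by rule: the highest signal of all, at 40% to 60%, over 80%, under 20% in surroundings over 80%, and at noncoding gene ends; the farthest from genes; the largest replicate differences; the largest groups (summits within 20000 bp of the next); and the nearest to the limit. Genes of the lists, lncRNA starts, miRNA hairpins and mitochondrial copies were named after their values were seen. The members and lists were chosen with earlier results of these data known. Calculations used Python 3.11.15 with numpy 2.4.6, pandas 2.3.3, scipy 1.17.1 and statsmodels 0.14.6.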

Additional observations from a re-analysis of the deposited data

How the results depend on the processing

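All settings listed here kept the direction of the differences between classes. No paired analysis was possible because there was only 1 group of samples; differences between classes of peaks were taken within each replicate. With each replicate left out, the median of desert peaks ranged from 19.2% to 20.8%, the difference from peaks near genes from 8.12 to 8.83 points, that from peaks inside genes from 4.42 to 4.81, the surroundings from 75.3% to 81.5%, the share under 20% from 48.1% to 50.9%, the share over 80% from 2.82% to 3.17%, and the peaks below their surroundings from 2118 to 2269. Moving the limit to 50000, 200000 and 500000 bp gave medians of 18.3%, 22.8% and 25.96%, differences of 7.67, 10.9 and 13.3 points from peaks near genes and 3.07, 7.58 and 10.7 from peaks inside genes, shares of 52.1%, 45.8% and 43.4% under 20% and of 2.65%, 3.29% and 3.55% over 80%, and 3074, 1099 and 357 peaks below their surroundings; 1459 and 478 peaks remained beyond 200000 and 500000 bp, with 57 and 20 replicate calls. The class of peaks near genes was cut at the same moved limit each time, so these differences are not from 1 fixed class. Admitting every peak with a CpG gave 4752 peaks and differences of 6.81 and 3.86 points. At least 30 and 50 reads gave medians of 14.98% and 10.9%, differences of 6.20 and 4.12 points from peaks near genes and 2.97 and 2.38 from peaks inside genes, shares under 20% of 58.1% and 65.4% and over 80% of 1.79% and 1.52%, with 958 peaks below their surroundings at 50; at least 5 reads gave 3.19% over 80%. The 1104 desert peaks above the median −log10 q had 12.7%, differences of 5.33 and 3.43, shares of 62.7% and 1.28%, and 990 below their surroundings. Pooled reads gave differences of 9.23 and 5.11 and surroundings of 67.1%; means in place of medians gave 26.6% and a difference of 7.47. Surroundings over 1000 bp from every peak stood at 85.3%. Allowing for an offset between libraries left 49 replicate calls, in place of 86, with no share over all autosomal peaks given. Added after seeing the data: without CpGs marked as altered 3.19% were over 80%; with reads at the density of the surroundings taken off the median was 14.1% and the differences 9.55 and 5.96; and without peaks of 2 or more times the reads in replicate 2, 2.14% were over 80%. The cause of these shifts was not tested. Surroundings rest on about 1 read per CpG, which limits single values there.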
